A study of Mus musculus with 15 samples.

Results

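The LPS response of Δ/+ bone marrow-derived dendritic cells (BMDCs) was described from 7 of the 15 libraries of bulk RNA sequencing in the series. All libraries with the Δ/+ genotype in their labels were taken, 3 with lipopolysaccharide (LPS) and 4 unstimulated (US), and every expressed gene was compared between them. The Δ/+ mice carried a tamoxifen-inducible Cre recombinase (CreERT2), 1 floxed Mysm1 allele and 1 wild-type allele, so that after tamoxifen they expressed wild-type MYSM1. They were the controls for CreERT2 Mysm1fl/DN mice (Δ/DN), in which the undeleted allele encodes a catalytically inactive MYSM1. Cre, tamoxifen and the deletion of 1 allele were thus shared by every group, and no library came from mice without them. Bone marrow, collected over 12 weeks past the tamoxifen course, was grown with GM-CSF for 9 days. The harvested cells were then kept for 18 h with no LPS or with 10 ng/mL of LPS from E. coli, and a single time point was sampled.

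The labels conflict on genotype: the library letter given to Δ/+ in the fields of each sample stands for Δ/DN in the description of the series. The fields of the samples were followed. If the series description is right, the response below is that of Δ/DN cells, and the comparison with the other genotype turns round. Total Mysm1 RNA cannot tell the 2 alleles apart. Mysm1, a histone H2A deubiquitinase gene, was at 46.3, 51.3, 49.9 and 54.1 CPM (read counts scaled to a common library size) in the US libraries, in replicate order, and at 43.7, 44.6 and 41.3 CPM in the LPS libraries. The groups did not overlap, yet the log2 difference of -0.23 ± 0.15 (SE) did not pass the test (adjusted p = 0.239).

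LPS, from the outer membrane of Gram-negative bacteria, is bound by LBP and CD14 and passed to the receptor TLR4 with its partner MD-2. From the cell surface TLR4 signals through TIRAP and MYD88 to NF-kB and MAP kinases, and from endosomes through TRAM and TRIF to TBK1 and IRF3, which turns on interferon beta. Secreted interferon then acts back on the cells through its receptor and JAK kinases. Dendritic cells stimulated in this way mature, which means that they display costimulatory molecules and peptide-loaded MHC, secrete cytokines and move toward lymph nodes.

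The US libraries held 37256651 to 93291582 counted reads and the LPS libraries 80341049 to 104041282. Treatment parted the 7 libraries on the first principal component, which held 71.0% of the variance. The US library of replicate 4 stood apart from the other 3 US libraries on the second component (8.98%), at -65.8 against 6.43 to 48.5. It is the only Δ/+ library whose name carries the prefix 3 instead of 2, a library set of unstated meaning, and it has no LPS partner. By their names, replicates 1, 2 and 3 each have a US and an LPS library from 1 culture. Whether each culture came from a separate mouse is not stated, so p-values refer to cultures at most.

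A GM-CSF culture can hold macrophages and granulocytes beside dendritic cells, so markers of 12 cell types were counted. All 15 conventional dendritic cell markers listed passed the filter on low counts, with a summed level of 2293 to 2869 CPM in US and 3014 to 3421 CPM in LPS libraries. Itgax, the gene of the integrin CD11c, lay at 842, 863, 1009 and 1030.3 CPM in US and 1197, 1052 and 1344 CPM in LPS libraries, a difference that did not pass the test (log2 0.34 ± 0.15, adjusted p = 0.0841). It was called higher in 6 of 18 alternative settings, among them the culture as a block (0.40, adjusted p = 0.0113), and lower by library totals. Macrophage markers summed to 8504 to 10160.4 and 10082 to 10562 CPM, and monocyte markers summed to 1813 to 2175 and 3642 to 4126 CPM, of which Vcan alone went from 214 ± 51.7 to 1884 ± 432 CPM. Neutrophil markers summed to 139.6 to 227 and 119 to 168 CPM, and eosinophil markers to 214 to 421 and 286 to 370.0 CPM. Plasmacytoid dendritic cell markers summed to 76.7 to 107 and 364 to 409.7 CPM, where Tcf4 alone went from 39.5 ± 9.99 to 320.3 ± 21.6 CPM and the median log2 difference of the 9 members was -0.32. B cell markers stayed between 1.36 and 2.97 CPM in sum, T and NK cell markers between 0.431 and 3.03 CPM with 2 of 10 at 0 in every library, and erythroid markers between 0.0954 and 1.47 CPM. The direction of some sums turned with the scaling. As a share of all reads, conventional dendritic cell markers went from 0.282% to 0.329% in US down to 0.233% to 0.251% in LPS libraries. Macrophage markers went from 1.04% to 1.18% down to 0.776% to 0.800%. Monocyte and plasmacytoid dendritic cell sums were higher with LPS by either measure. In bulk RNA, fewer cells of a type and less RNA per cell cannot be told apart.

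Differences were tested with edgeR's quasi-likelihood test, and a gene is called, or said to have risen or fallen, at a Benjamini-Hochberg adjusted p under 0.05. Of 50554 genes counted, 20865 had enough reads to test. LPS changed 9951 of them (47.7%): 4664 rose (22.4%) and 5287 fell (25.3%). By at least 1 log2 unit 2714 genes rose and 2752 fell. At 4 log2 units or more the balance was uneven, with 393 higher and 92 lower. The median log2 difference was 1.23 over the genes that rose, -1.04 over those that fell and -0.08 over all genes tested. The 3 LPS libraries lay wholly above or below the 4 US libraries for 10875 genes (52.1%). In the plot of log2 fold change against expression, the genes that rose most include some with the most reads, while the large falls are among genes of low and middle expression.

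**Figure D1:**
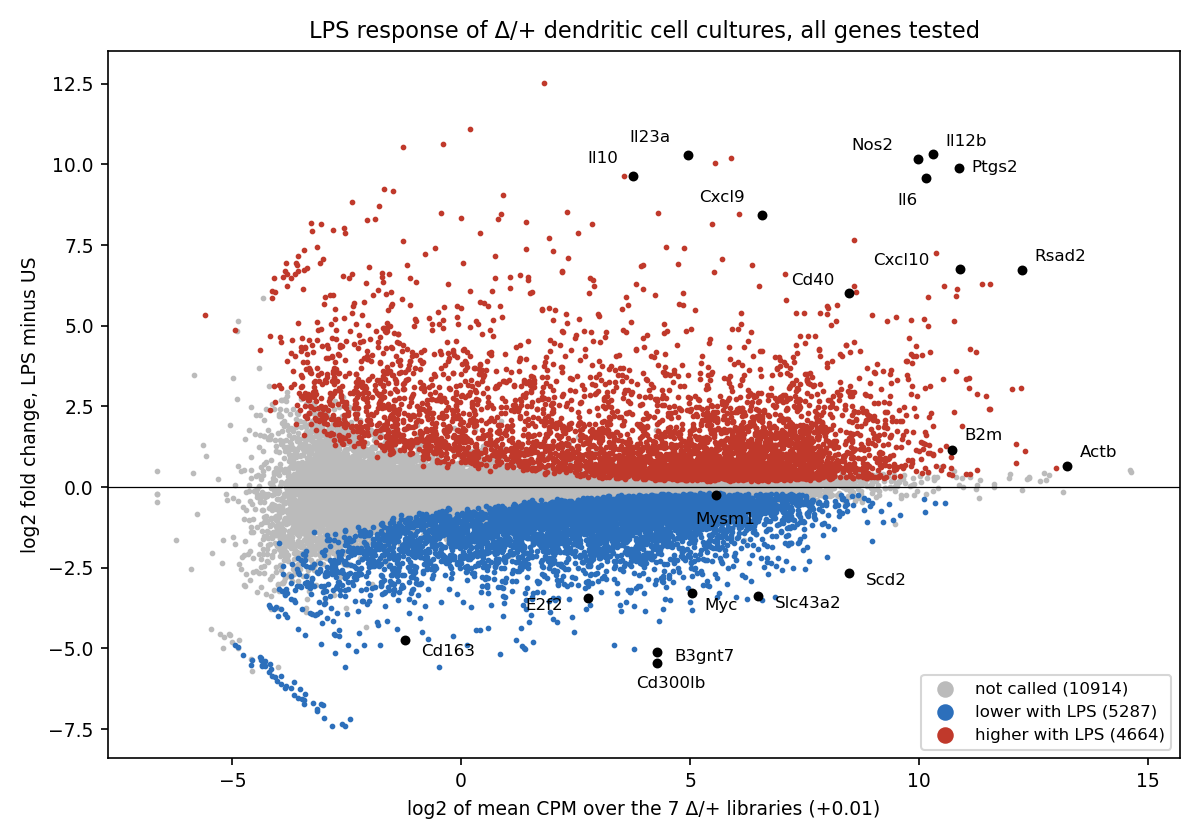
Log2 fold change of LPS over US (y axis) against the log2 of the mean CPM over the 7 Δ/+ libraries (x axis), 1 point for each of the 20865 genes tested. Red points are the 4664 genes that rose, blue points the 5287 that fell, grey points those not called, and black points named genes. The rises reach further from 0 than the falls at high expression.

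Rising genes took up a large part of the RNA. Genes called higher held 32.9% to 35.6% of the reads of tested genes in US libraries and 60.4% to 61.6% with LPS. The 393 genes that rose by 4 log2 units or more went from between 0.214% and 0.483% of these reads to between 9.13% and 9.73%. Genes called lower went from 18.1% to 19.7% down to 6.63% to 6.74%. Fold changes are therefore relative to a scaling (TMM) that centres the bulk of genes near 0. Scaling to library totals, an alternative added after seeing the data, placed the median of all genes at -0.73 and called 2317 genes higher and 11211 lower. The share of called genes that rose was 46.9% by the first scaling and 17.1% by the second. RNA per cell was not measured, so small rises depend on this choice. Of the genes named below as risen, Tlr2, Relb, H2-Ab1, Cd74, Hk3, Hif1a, Idi1, Wdr43, Rpl24, Actb, Zbtb46, Adgre1, Ly6c2, Tmem267, Emilin1 and Acvr1b were not called by library totals. For ATP8, COX2, Zfp384 and Gm10358, also named as risen, the difference turned negative.

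Gene groups were read against these shares of 22.4% higher and 25.3% lower, and no group was given a test of its own. In the plot of called shares by gene group, cytokines, interferon-stimulated genes, immunity-related GTPases and NF-kB genes lie at the top and amino acid transporters, cholesterol synthesis, ribosome biogenesis and cell cycle genes at the bottom.

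**Figure D2:**
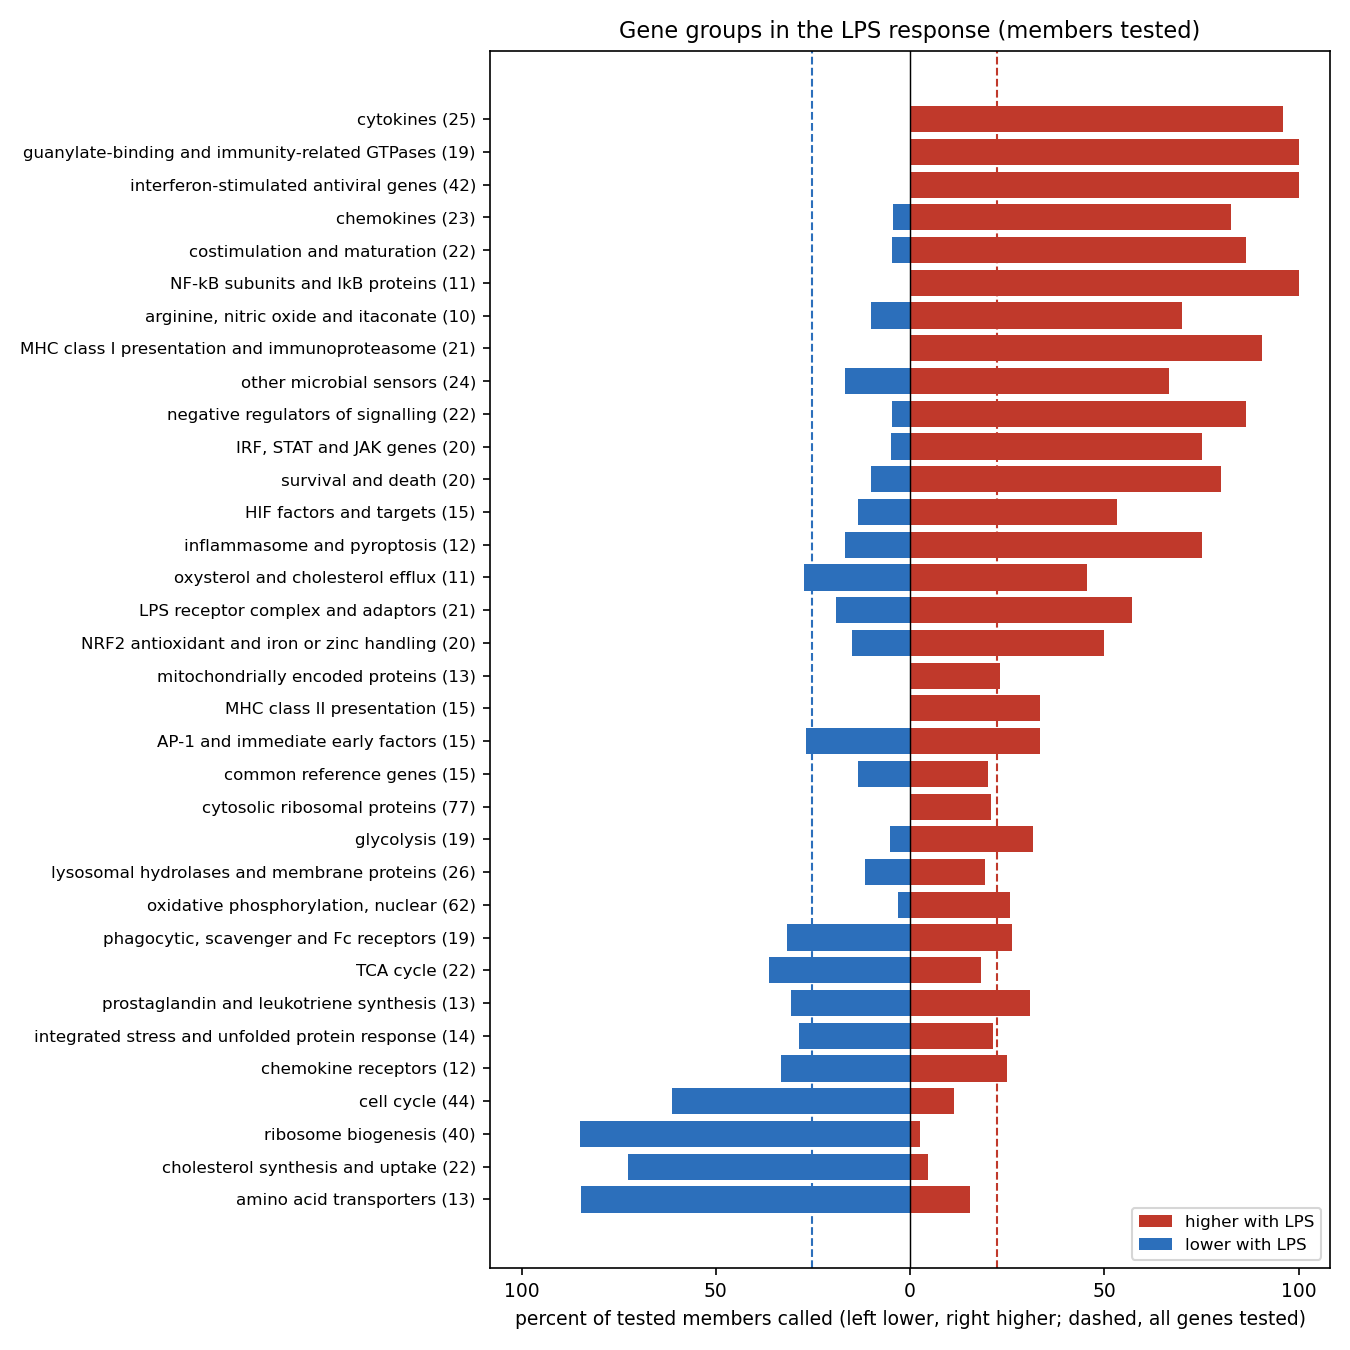
Percentage of the tested members of 34 gene groups called higher (red, to the right) or lower (blue, to the left) with LPS, ordered by median log2 fold change, with the number tested in parentheses. Dashed lines mark 22.4% higher and 25.3% lower over all tested genes. All 42 antiviral and all 19 GTPase genes lie on the right, and 34 of 40 ribosome biogenesis genes on the left.

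Receptor and adaptor genes of LPS sensing moved in different directions. Tlr4 itself fell from 283, 343, 291 and 415 CPM in the US libraries to 106, 104 and 133 CPM in the LPS libraries. Every LPS library lay below every US library, and the log2 difference was -1.49 ± 0.13 (SE, adjusted p = 5.33e-07). Cd14, the co-receptor that hands LPS to TLR4, rose from 192, 249, 166 and 304 CPM to 854, 913 and 902 CPM (log2 2.12 ± 0.28, adjusted p = 2.66e-05). Ly96, which encodes MD-2, rose from 7.26 ± 0.764 to 16.5 ± 1.91 CPM (SD, n = 4 and n = 3). Of the adaptors, Myd88 rose by 1.80 log2 units and Tank, a scaffold of TBK1, by 1.96, while the kinase genes Irak1 (-0.88 ± 0.09) and Irak4 (-0.54 ± 0.09) fell. Over the group, 12 rose and 4 fell of 21 tested, with a median log2 difference of 0.53. With library totals 8 rose and 10 fell.

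Among other microbial sensors 16 rose and 4 fell of 24 tested (median 1.61). The largest rises were in sensors of double-stranded RNA. Ifih1, the double-stranded RNA sensor MDA5, was at 94.5, 74.9, 116 and 30.7 CPM in US and 1864, 1958 and 2011 CPM in LPS libraries, a rise of 4.63 ± 0.63 log2 units (adjusted p = 6.18e-05). Tlr3, an endosomal receptor for double-stranded RNA, rose from 7.40 ± 3.90 to 171 ± 9.80 CPM. Zbp1, a sensor of Z-form nucleic acid, rose by 3.16 and Nod1, a sensor of bacterial peptidoglycan, by 3.17. Tlr2, the receptor for bacterial lipoproteins, rose less (0.95 ± 0.25, adjusted p = 0.00613). Clec7a, which encodes the beta-glucan receptor dectin-1, fell from 894 ± 161 to 428 ± 72.9 CPM. The flagellin receptor gene Tlr5 had few reads and went from 0.720, 0.286, 0.231 and 0.396 CPM to 0.109, 0.113 and 0.0262 CPM (-2.42 ± 0.74, adjusted p = 0.0141) and this call was lost without LPS replicate 3 (adjusted p = 0.0638). Of the 4 sensors that fell, 2 stayed called without any 1 of US replicate 1, US replicate 3, LPS replicate 2 or LPS replicate 3.

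All 11 genes of NF-kB subunits and IkB proteins rose, with a median of 2.11 (10 with library totals). Nfkbiz, an atypical nuclear IkB that helps to switch on late response genes, rose most, from 20.4, 22, 14.3 and 15.2 CPM to 448, 451 and 521 CPM (4.68 ± 0.18, adjusted p = 5.49e-10). Nfkb1 rose from 321 ± 43.8 to 1553 ± 97.9 CPM and Rel from 185 ± 39.2 to 902 ± 79.2 CPM. Nfkbib, an IkB protein gene, rose by 2.31. The smallest rises were those of Bcl3 (1.11 ± 0.18) and Relb (0.89 ± 0.12), a subunit of the non-canonical pathway.

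Inhibitors of the same pathways rose with the activators. Of the negative regulators 19 rose and 1 fell of 22 tested (median 1.52). Tnfaip3, which encodes the ubiquitin-editing inhibitor A20, went from 144, 153, 126 and 135 CPM to 1924, 2276 and 1674 CPM, a log2 difference of 3.84 ± 0.25 (adjusted p = 3.06e-08). Il1rn, the antagonist of the interleukin-1 receptor, rose from 428 ± 74.7 to 4516 ± 483 CPM, and Socs3, an inhibitor of cytokine receptor signalling, rose from 161 ± 60.3 to 1126 ± 166 CPM. Dusp2, a MAP kinase phosphatase gene, rose by 3.38 from a low level of 0.964 CPM. The exception was Sigirr, an inhibitory receptor of the interleukin-1 receptor family, which fell from 1.96 ± 0.381 to 0.376 ± 0.161 CPM.

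Immediate early and AP-1 factors, many of which peak soon after stimulation, were mixed at 18 h: 5 rose and 4 fell of 15 tested (median 0.26). Maf rose from 6.04, 7.60, 5.72 and 5.99 CPM to 73.3, 92.5 and 105 CPM (3.73 ± 0.29, adjusted p = 3.85e-07), and Batf2 rose by 3.54. Egr2 fell by 1.78 and Jun by 1.02 log2 units. The shares of genes that rose and fell were 33.3% and 26.7% of the group, where over all genes they were 22.4% and 25.3%.

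In the interferon arm, 15 rose and 1 fell of 20 tested among IRF, STAT and JAK genes (median 1.45). Irf7, which amplifies interferon production, was at 47.7, 31.2, 55.4 and 9.26 CPM in the US and 724, 753 and 768 CPM in the LPS libraries. The lowest US value was that of replicate 4, and the LPS libraries lay close together and far above. The log2 difference was 4.40 ± 0.83 (adjusted p = 0.00092). Irf1 rose by 2.67 and Stat5a, which carries GM-CSF signals, by 3.04 log2 units. Irf3, the factor directly activated by TRIF signalling, was the member that fell, by 0.42 log2 units (from 26.1 to 19.0 CPM).

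Of 25 cytokine genes tested, 24 rose and 0 fell, with a median of 5.40, and their summed level went from the range of 1015 to 1159 CPM to that of 25532 to 38838 CPM. Il12b, which encodes the p40 subunit shared by IL-12 and IL-23, had one of the largest rises. It was at 3.25, 1.73, 2.74 and 0.791 CPM in the US libraries and at 2724, 1942 and 4252 CPM in the LPS libraries, a log2 difference of 10.31 ± 0.40 (adjusted p = 8.59e-10). No LPS library came near the US range. Its partner subunits rose as well: Il23a from 0.0655, 0.0835, 0.0463 and 0.0233 CPM to 99.9, 56.8 and 61.0 CPM (10.30 ± 0.54), and Il12a from 0, 0.0954, 0 and 0.0233 CPM to 28.2, 16.6 and 37.2 CPM (9.65 ± 0.65). In the US libraries Il23a had 3, 7, 5 and 2 reads and Il12a 0, 8, 0 and 2. The size of these 2 log2 differences therefore rests on few reads. Il27, the p28 subunit of IL-27, rose from 0.361 ± 0.176 to 103 ± 20.0 CPM.

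The classical inflammatory cytokines all rose. Il1b rose from 99.1, 104, 89.4 and 83.0 CPM to 6366, 5587 and 8677 CPM (6.29 ± 0.63, adjusted p = 4.46e-06) and Il1a from 82.2, 92.8, 68.2 and 79.6 CPM to 5736, 4902 and 7723 CPM (6.28 ± 0.41, adjusted p = 5.77e-08). Il6 rose from 4.32, 4.74, 2.65 and 2.32 CPM to 2583, 2299 and 3153 CPM (9.57 ± 0.61, adjusted p = 1.03e-07). Tnf, already present in resting cells, rose from 83.2, 82.7, 93.6 and 74.6 CPM to 2631, 1748 and 3553 CPM (5.01 ± 0.33, adjusted p = 5.1e-08). For Il1b, Il1a, Il6, Tnf and Il12b alike, the LPS library of replicate 3 was the highest of the 3. Inhba, the activin A subunit gene, rose from 296 ± 47.0 to 5247 ± 789 CPM and was among the 6 genes with the largest gain in CPM.

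Il10, an anti-inflammatory cytokine, was near the floor in US libraries (0.153, 0.0239, 0.0370 and 0 CPM) and at 35.6, 47.6 and 11.2 CPM with LPS (9.65 ± 0.97, adjusted p = 4.7e-06). Its lowest LPS value was that of replicate 3, the library in which Il12b was highest. Over the 3 LPS libraries its coefficient of variation was 59.0%, where the median over 3187 genes that rose and reached 10 CPM was 7.47%. Ifnb1, interferon beta, was higher with LPS at 18 h, at 8.25, 6.22 and 4.35 CPM against 0.196, 0.0716, 0.00925 and 0.0698 CPM (6.51 ± 0.84). The colony-stimulating factor genes Csf3 (from 0.0654 to 16.8 CPM) and Csf2 (0.0436 CPM in US replicate 1, 0 in the other US libraries, and 5.24, 2.89 and 4.86 CPM with LPS) rose. Csf2 encodes GM-CSF, which the cultures also received as a protein. Il33, an alarmin, rose by 4.90 and Osm, of the IL-6 family, by 1.76 log2 units. Tgfb1 was the only member not called, at 360.0, 363, 417 and 391 CPM and 449.6, 374 and 542 CPM, where the 95% interval of the log2 difference was -0.09 to 0.61, and with the culture as a block in the 6 libraries of set 2 it was called higher (0.28, adjusted p = 0.0107).

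**Figure D3:**
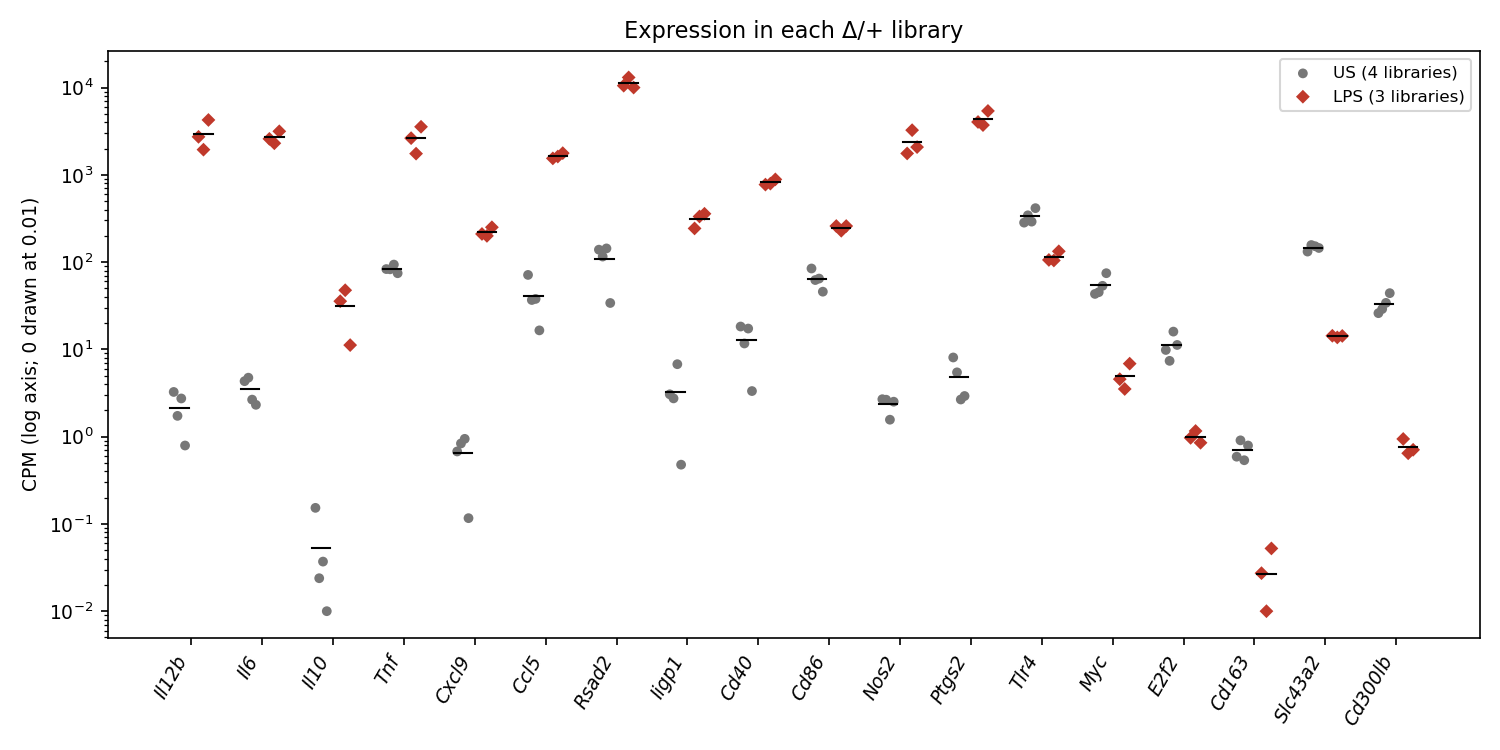
CPM (log axis, with 0 drawn at 0.01) of 18 genes in each of the 4 US libraries (grey circles) and 3 LPS libraries (red diamonds) of Δ/+ cells, with the group means as bars. In each gene shown the 2 groups do not overlap, from the rise of Il12b at the left to the fall of Cd300lb at the right. This held for 52.1% of all tested genes, and it was a condition for naming the genes with the largest rises and falls.

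Chemokine genes rose in 19 of 23 cases, 1 fell, and the median was 3.02. Among those that rose most were ligands of CXCR3, which attract activated T cells: Cxcl9 went from 0.676, 0.835, 0.944 and 0.116 CPM to 210.0, 199.7 and 251 CPM (8.45 ± 1.23, adjusted p = 0.000131), and Cxcl10 from 53.6, 43.0, 61.3 and 8.31 CPM to 3992, 4869.5 and 4445 CPM (6.76 ± 1.06, adjusted p = 0.000208). In both, US replicate 4 was the lowest library. The neutrophil attractants Cxcl1 (from 4.62 ± 2.05 to 889.5 ± 104 CPM) and Cxcl5 (from 0.188 to 16.8 CPM) rose. Cxcl5 was uneven among the LPS libraries, at 11.1, 11.9 and 27.6 CPM. The inflammatory chemokines Ccl5 (from 40.6 ± 22.7 to 1645 ± 116 CPM) and Ccl4 (from 29.1 ± 7.15 to 1138 ± 107 CPM) rose by 5.28 and 5.35 log2 units. The ligands of CCR4 had reads in plenty before LPS and rose by less than Ccl4 and Ccl5, Ccl22 from 752 ± 352 to 5614 ± 1212 CPM and Ccl17 from 404 ± 139 to 1418 ± 390.1 CPM. Cxcl14 fell, from 2.66 to 0.840 CPM.

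Among chemokine receptors 3 rose and 4 fell of 12 tested (median -0.54). Ccr7, which guides mature dendritic cells to lymph nodes, rose from 237, 168, 158 and 66.0 CPM to 534, 424 and 399.6 CPM (1.43 ± 0.24, adjusted p = 0.000169). The atypical receptor gene Ccrl2 rose from 8.66 ± 2.34 to 361 ± 19.1 CPM. Receptors for inflammatory and tissue-retention signals fell: Ccr2 from 253, 324, 565 and 385 CPM to 58.2, 60.7 and 141 CPM (-2.15 ± 0.35), Ccr1 by 1.04, Cxcr4 from 36.9 to 5.42 CPM and Cxcr2 from 2.83 to 0.295 CPM. Cxcr2 is also a neutrophil marker, of a list of 16 in which 1 rose and 1 fell.

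All 42 interferon-stimulated antiviral genes rose, with a median of 3.38 (41 rose and 0 fell with library totals). Their summed level was 3843, 3184, 4535 and 1515 CPM in the US libraries and 49802, 56831 and 49625 CPM in the LPS libraries. US replicate 4 was far below each other US library, and the LPS libraries, which include none of its set, lay close together. The median coefficient of variation of these genes fell from 49.2% over the 4 US libraries to 5.25% over the 3 LPS libraries, against 11.3% and 7.47% over all 3187 genes that rose and reached 10 CPM. Without US replicate 4, 41 rose and 0 fell.

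Rsad2, the antiviral enzyme viperin, had the largest gain in CPM of any gene, from 139, 116, 143 and 34.0 CPM to 10501, 13056 and 9994 CPM (6.74 ± 1.10, adjusted p = 0.000285). Cmpk2, a mitochondrial nucleotide kinase gene, rose from 46.5 ± 23.1 to 3444 ± 536 CPM. Ifit1, which binds foreign RNA, rose from 69.1 ± 39.0 to 4123 ± 671 CPM, and Isg15, a ubiquitin-like modifier, from 18.8 ± 11.7 to 604 ± 30.8 CPM. Rnf213, a giant ubiquitin ligase that coats bacteria, was high from the start and rose from 1299.6, 1181, 1764 and 332 CPM to 9650.2, 8869 and 10445 CPM (3.08 ± 0.58). Trim25 had one of the smaller rises, from 202 to 733 CPM. Ifi208 had the widest relative spread of the genes that rose to a mean of at least 10 CPM, at 9.50, 65.9 and 12.4 CPM with LPS, with replicate 2 well above the other libraries.

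All 19 genes of guanylate-binding proteins and immunity-related GTPases, which attack the vacuoles of intracellular pathogens, rose (median 4.04). Iigp1 went from 3.05, 2.74, 6.76 and 0.477 CPM to 243, 333 and 358 CPM (6.60 ± 1.13, adjusted p = 0.000463), Gbp5 rose from 57.3 ± 24.7 to 2050.2 ± 85.8 CPM and Gvin1 rose from 1072 ± 282 to 5631 ± 671 CPM. Several of these genes have near-identical copies, among which reads may have been divided.

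Promoter sequences are shown for the interferon and NF-kB arms because the genes of these arms moved together. The core of the interferon-stimulated response element, the site of interferon regulatory factors, was searched as TTTCNNTTTC on both strands, in the 250 bases before and 50 bases after each RefSeq start (GRCm38.p6). Only the 22862 of 27025 symbols with 1 promoter were searched, among them 10348 of the tested genes. The core was found in 3.58% of these promoters. Among genes that rose it was found in 6.18%, among those that rose by at least 4 log2 units in 15.2%, among those that fell in 1.71% and among those tested and not called in 2.84%. Of list members with 1 promoter, 13 of 26 in the antiviral list held it, and 9 of 10 in the GTPase list. The kappa B site, bound by NF-kB, was searched as GGGANNTTCC. It lay in 1.41% of promoters, 2.16% of those of genes that rose, 6.45% of those that rose by at least 4 log2 units and 1.16% of those that fell. Shares of 2 other searched motifs also went up with the size of the rise. The AP-1 site TGANTCA lay in 5.52% of promoters of tested genes and 4.12% of those that fell. It lay in 13.8% of those that rose by at least 4 log2 units. For the gamma-activated site TTCNNNGAA the shares were 7.19%, 6.50% and 12.0%, and 6 of 10 in the GTPase list. A match of letters is a description and not a bound site.

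The highest-rising listed genes with each match are printed with the 250 bases before the start, 5′ to 3′ in the direction of the gene, and the match in capitals. Cxcl10 (chr5:92348890-92349139, minus strand) holds the response element core 213 bases before the start and Rsad2 (chr12:26456453-26456702, minus strand) 120 bases before it. Il6 (chr5:30012864-30013113, plus strand) holds a kappa B match 44 bases before the start. In Cxcl1 (chr5:90890995-90891244, plus strand) 2 overlapping kappa B matches start 71 and 70 bases before it. In none of the 4 does another searched motif overlap the capitals. Other matches were left in lower case: 1 kappa B and 1 AP-1 match in Cxcl10, 1 AP-1 match in Rsad2 and 1 AP-1 match in Il6.
Cxcl10: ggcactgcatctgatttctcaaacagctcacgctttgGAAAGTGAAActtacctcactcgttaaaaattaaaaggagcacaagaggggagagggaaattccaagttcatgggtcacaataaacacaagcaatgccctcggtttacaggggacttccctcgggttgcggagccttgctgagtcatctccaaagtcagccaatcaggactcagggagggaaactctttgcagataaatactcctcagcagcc
Rsad2: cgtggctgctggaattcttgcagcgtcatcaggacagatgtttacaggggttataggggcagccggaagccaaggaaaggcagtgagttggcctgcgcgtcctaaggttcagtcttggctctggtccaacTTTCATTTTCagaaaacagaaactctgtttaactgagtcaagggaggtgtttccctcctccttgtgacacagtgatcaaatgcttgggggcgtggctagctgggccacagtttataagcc
Il6: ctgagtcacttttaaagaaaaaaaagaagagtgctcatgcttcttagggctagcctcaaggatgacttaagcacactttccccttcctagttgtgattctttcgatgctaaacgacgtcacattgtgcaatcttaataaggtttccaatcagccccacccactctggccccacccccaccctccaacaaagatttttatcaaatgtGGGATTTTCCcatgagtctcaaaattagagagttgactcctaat
Cxcl1: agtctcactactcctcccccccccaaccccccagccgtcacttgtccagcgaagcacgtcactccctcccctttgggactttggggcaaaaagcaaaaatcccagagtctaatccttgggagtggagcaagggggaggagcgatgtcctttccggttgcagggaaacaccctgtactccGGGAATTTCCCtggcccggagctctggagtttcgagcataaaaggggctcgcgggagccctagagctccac

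Maturation genes rose in 19 of 22 cases, 1 fell, and the median was 2.17. Cd40, through which helper T cells license dendritic cells, rose most, from 18.3, 11.7, 17.3 and 3.33 CPM to 773, 793 and 887 CPM (6.01 ± 0.68, adjusted p = 1.54e-05). The B7 genes Cd80 (from 38.2 ± 9.15 to 192 ± 20.6 CPM) and Cd86 (from 64.3 ± 15.8 to 249 ± 17.5 CPM) rose, as did the maturation marker gene Cd83 (from 49.5 ± 23.7 to 221 ± 40.9 CPM). Of the inhibitory ligands, Cd274 (PD-L1) rose from 366, 354, 311 and 286 CPM to 1773, 2056 and 1525 CPM (2.45 ± 0.22), while Pdcd1lg2 (PD-L2) did not pass the test at 81.4, 66.6, 81.7 and 47.7 CPM and 61.2, 50.3 and 74.6 CPM. The 95% interval of its log2 difference was -0.64 to 0.21, and it was called lower in 3 of 18 alternative settings, among them the culture as a block (-0.32, adjusted p = 0.0129). Slamf1 rose from 0.815 ± 0.594 to 14.2 ± 7.20 CPM. Lamp3, known as DC-LAMP in human dendritic cells, was close to the floor at 0.371, 0.143, 0.148 and 0.256 CPM and fell to 0, 0.0806 and 0.0262 CPM. Its call was lost without LPS replicate 1, US replicate 1 or LPS replicate 3 (adjusted p = 0.0617 to 0.0785).

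MHC class I and class II genes differed in how many members rose. Of 21 class I presentation and immunoproteasome genes 19 rose and 0 fell (median 1.72), and 15 rose with library totals. Tap1, a subunit of the peptide transporter, went from 113, 88.9, 133 and 47.6 CPM to 701, 727 and 721 CPM (2.91 ± 0.39, adjusted p = 4.26e-05). Nlrc5, the transactivator of class I genes, rose by 2.86, the immunoproteasome subunit Psmb9 by 2.21 and H2-K1 by 1.14 log2 units. B2m, the light chain of class I molecules, stood at 2436, 2432 and 2442 CPM in the LPS libraries, a coefficient of variation of 0.213%, after 1155, 1028, 1175 and 1095 CPM in the US libraries. Calr, a chaperone of class I loading, did not pass the test (0.31 ± 0.15, adjusted p = 0.118), but did with the culture as a block (0.33, adjusted p = 0.0333) and without US replicate 3.

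Of 15 class II genes 5 rose and 0 fell (median 0.30), but with library totals 0 rose and 5 fell. H2-Ab1 went from 743, 606, 805 and 630.0 CPM to 1259, 1074 and 1346 CPM (0.76 ± 0.19) and the invariant chain gene Cd74 from 3517, 3075, 4051 and 2819 CPM to 5989, 5018 and 6561 CPM (0.75 ± 0.19). Ciita, the transactivator of class II genes, overlapped between the groups, at 93.0, 58.6, 105 and 32.0 CPM and 72.3, 57.2 and 105 CPM. Its log2 difference was -0.01 ± 0.30 (adjusted p = 0.978), with a 95% interval of -0.68 to 0.66.

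Inflammasome genes, whose products cut and release interleukin-1, rose in 9 of 12 cases and fell in 2 (median 0.68). With library totals 5 rose and 3 fell, and without LPS replicate 1, LPS replicate 3, US replicate 1 or US replicate 3 only 1 fell. Casp4, which in mice encodes the receptor caspase for LPS in the cytosol, rose from 25.8, 23.6, 20.0 and 16.7 CPM to 226, 258 and 200.4 CPM (3.48 ± 0.40, adjusted p = 1.55e-05). Nlrp3 rose from 146 ± 10.2 to 673 ± 72.6 CPM and Casp1 from 39.4 ± 3.42 to 168 ± 15.8 CPM. Nlrp1b fell from 21.3 ± 4.99 to 6.17 ± 0.992 CPM.

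In arginine and itaconate metabolism 7 of 10 genes rose and 1 fell (median 1.84). Nos2, the inducible nitric oxide synthase, went from 2.68, 2.65, 1.56 and 2.51 CPM to 1758, 3248 and 2078 CPM (10.18 ± 0.94, adjusted p = 3.07e-06), and the LPS library of replicate 2 was the highest. Acod1, which makes itaconate from a Krebs cycle intermediate, rose from 257 ± 110.0 to 4881 ± 775 CPM. Slc7a2, an arginine importer, rose from 1098 ± 212 to 8359 ± 497 CPM and Gch1, which makes the cofactor of nitric oxide synthase, by 2.42 log2 units. Arg1, the competing arginase, overlapped between the groups, at 102, 164, 84.1 and 129 CPM in US and 109, 187 and 74.1 CPM in LPS libraries, with a 95% interval of -1.51 to 1.00 for the log2 difference. Culture 2 was the highest in both. Of the enzymes that regenerate arginine, Ass1 did not pass the test (0.51 ± 0.25) but did with the block in set 2 (0.38, adjusted p = 0.000543) and without US replicate 3, and Asl fell (-0.42 ± 0.10).

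Prostaglandin and leukotriene genes went both ways, as 4 rose and 4 fell of 13 tested. Ptgs2, the inducible cyclooxygenase, went from 8.07, 5.45, 2.66 and 2.92 CPM to 4031, 3714 and 5394 CPM (9.89 ± 0.72, adjusted p = 3.45e-07), and Ptges, the synthase of prostaglandin E downstream of it, rose from 2.81 ± 0.749 to 57.2 ± 4.57 CPM. Ptgs1, the constitutive cyclooxygenase, fell from 30.6 ± 5.68 to 11.5 ± 0.411 CPM.

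Of 19 glycolysis genes 6 rose and 1 fell (median 0.17), with 3 and 12 by library totals. The single fall was lost without LPS replicate 1 or any 1 US library. The regulators and first steps were among those that rose: Pfkfb3 went from 82.3, 71.2, 59.98 and 45.7 CPM to 204, 350.1 and 113 CPM (1.71 ± 0.29, adjusted p = 0.000277), and the hexokinase gene Hk3 rose by 1.03. Pfkfb3 was uneven among LPS libraries and lost its call in the 6 libraries of set 2 with the culture as a block. Slc2a1, the glucose transporter GLUT1, did not pass the test (-0.39 ± 0.18, adjusted p = 0.0817), and was called lower in 5 of 18 alternative settings, among them the block (-0.45, adjusted p = 0.0264). Among HIF factors and targets 8 rose and 2 fell of 15 tested, with 4 and 6 by library totals. Hif1a rose from 314 ± 44.7 to 618 ± 66.0 CPM, Egln3, a prolyl hydroxylase that marks HIF for decay, by 2.35, and Adm, adrenomedullin, by 2.73 log2 units. Vegfa went from 123, 175, 81.8 and 173 CPM to 80.7, 101 and 51.7 CPM, which did not pass the test (adjusted p = 0.0619) but was called lower in 9 of 18 alternative settings, among them the block (-0.69, adjusted p = 0.000174).

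Of 22 genes of the Krebs cycle 4 rose and 8 fell, with 0 and 20 by library totals. The count that rose was 1 or 2 without LPS replicate 1, LPS replicate 3, US replicate 1 or US replicate 2, and the count that fell was 5 without US replicate 3. Idh1, a cytosolic NADPH-producing isocitrate dehydrogenase, fell from 161, 157, 149 and 177 CPM to 47.1, 44.1 and 44.5 CPM (-1.85 ± 0.11, adjusted p = 1.12e-08). Idh3a, of the mitochondrial enzyme, fell by 1.01 log2 units. Of 62 nuclear genes of oxidative phosphorylation 16 rose and 2 fell, a balance that turned to 2 and 56 by library totals. Without LPS replicate 3, 8 rose, and without US replicate 3, 1 fell. Cytochrome c (Cycs) rose from 51.3 ± 4.79 to 127 ± 16.1 CPM and Ndufs7, of complex I, fell from 16.7 to 9.85 CPM. Of 13 mitochondrially encoded proteins 3 rose, among them ATP8 (0.52 ± 0.15) and COX2 (0.40 ± 0.14), but by library totals 3 fell and both of these differences turned negative. The count that rose was 0 or 1 without LPS replicate 2, LPS replicate 3, US replicate 2 or US replicate 4. The call of COX2 was lost without LPS replicate 2, US replicate 2, LPS replicate 3 or US replicate 4 (adjusted p = 0.0592 to 0.0795), and that of ATP8 without LPS replicate 3 (adjusted p = 0.0633).

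Cholesterol synthesis and uptake genes fell in 16 of 22 cases, 1 rose, and the median was -0.96 (21 fell with library totals). Dhcr7, the last enzyme of one branch of the pathway, went from 18.7, 17.1, 19.6 and 26.1 CPM to 4.19, 3.43 and 3.14 CPM (-2.46 ± 0.16, adjusted p = 3.06e-08). Sqle, squalene epoxidase, fell from 120.4 ± 23.1 to 34.2 ± 4.09 CPM. Idi1 was higher (0.67 ± 0.23), and this call was lost without LPS replicate 1, US replicate 1, US replicate 2, LPS replicate 3 or US replicate 4 (adjusted p = 0.0592 to 0.107), and also without a filter on low counts (adjusted p = 0.0985). Ch25h, whose oxysterol product restrains this pathway, rose from 6.66, 4.55, 6.16 and 8.30 CPM to 283, 294 and 357 CPM (5.79 ± 0.71, adjusted p = 3.14e-05). In its list of oxysterol and cholesterol efflux genes 5 rose and 3 fell of 11 tested, and the exporter gene Abca1 did not pass the test (0.34 ± 0.14) but was called higher in 9 of 18 alternative settings, among them the block (0.31, adjusted p = 0.0287), and lower by library totals. Scd2, a fatty acid desaturase gene, was among the 6 with the largest loss in CPM, from 555 ± 155 to 94.0 ± 18.3 CPM.

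Among lysosomal genes 5 rose and 3 fell of 26 tested, or 1 and 19 by library totals. Tfeb, the master regulator of lysosomal genes, went from 19.4, 23.9, 24.6 and 25.2 CPM to 2.96, 2.24 and 2.83 CPM (-3.06 ± 0.21, adjusted p = 4.26e-08). The protease gene Ctsc rose from 674 ± 95.9 to 1663 ± 239 CPM. Among phagocytic, scavenger and Fc receptors 5 rose and 6 fell of 19 tested. The scavenger receptor gene Marco rose from 1.98 ± 0.728 to 21.3 ± 11.1 CPM and Fcgr4 by 1.65. Cd163, the haemoglobin scavenger receptor, fell from 0.589, 0.907, 0.537 and 0.791 CPM to 0.0273, 0 and 0.0524 CPM (-4.73 ± 0.76, adjusted p = 0.000114). Mrc1, the mannose receptor, overlapped between the groups (0.23 ± 0.25).

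Among antioxidant and metal-handling genes 10 rose and 3 fell of 20 tested. Slc7a11, the cystine importer, went from 611, 739, 605 and 608 CPM to 3035, 2977 and 3667 CPM (2.34 ± 0.16, adjusted p = 4.21e-08). Sod2, mitochondrial superoxide dismutase, rose from 235 ± 39.4 to 1153 ± 149 CPM and Mt2, a metallothionein, from 37.1 ± 3.49 to 251 ± 71.2 CPM. Gclm, of glutathione synthesis, fell by 0.59, a call lost without LPS replicate 1 (adjusted p = 0.0624), when 1 gene of the group fell. In the integrated stress and unfolded protein responses 3 rose and 4 fell of 14 tested, and 2 fell without LPS replicate 1. The chaperone gene Hspa5 (BiP) rose from 433 ± 62.2 to 1301 ± 87.9 CPM and Trib3 fell by 1.16.

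Amino acid transporters fell in 11 of 13 cases and 2 rose, by either scaling, with a median of -1.15. Slc43a2, an importer of large neutral amino acids, went from 132, 157, 152 and 145 CPM to 14.3, 13.7 and 14.3 CPM (-3.36 ± 0.30, adjusted p = 9.86e-07). Slc7a5, the light chain of LAT1, fell from 69.1 ± 3.46 to 20.5 ± 2.00 CPM. Slc7a8 rose from 156 ± 19.6 to 517 ± 3.94 CPM, and the other member that rose was the heavy chain gene shared by several of these importers. Slc7a2 and Slc7a11, which rose, are counted in the lists above.

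Genes of survival and death rose in 16 of 20 cases and fell in 2 (median 1.30). Cflar, which blocks caspase-8, went from 192, 182, 182 and 136 CPM to 1742, 1825 and 1789 CPM (3.36 ± 0.22, adjusted p = 3.61e-08). Bcl2a1d, a survival gene of the Bcl-2 family with near-identical copies, rose from 179.8 ± 50.9 to 873 ± 67.6 CPM. Bcl2 itself fell from 11.03 ± 4.89 to 2.48 ± 1.40 CPM, and the death gene Bbc3 fell by 0.87.

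Cell cycle genes fell in 27 of 44 cases and rose in 5 (median -0.90), and 3 rose without LPS replicate 3. E2f2, a transcription factor of the entry into S phase, went from 9.84, 7.38, 16.0 and 11.2 CPM to 0.968, 1.16 and 0.851 CPM (-3.44 ± 0.36, adjusted p = 3.35e-06). The mitotic genes Cdc20 (from 11.7 ± 3.08 to 1.47 ± 0.231 CPM) and Plk1 (from 10.1 ± 3.33 to 2.07 ± 0.299 CPM) fell. Mki67, a marker of cycling cells, overlapped between the groups at 202, 180.4, 245 and 139 CPM and 269, 198 and 227 CPM, with a 95% interval of -0.34 to 0.83. Tyms, thymidylate synthase, rose from 7.58 to 19.3 CPM. Ccnd2, cyclin D2, rose from 326, 248, 424 and 168 CPM to 2894, 2653 and 3626 CPM (3.36 ± 0.36, adjusted p = 5.08e-06), and with it the summed level of the list went up, from the range of 908 to 1617 CPM to that of 3293 to 4369 CPM, against the direction of most members. Of members of the list with 1 promoter, 7 of 31 held the E2F motif TTCCCGC, against 4.60% of all promoters and 7.77% of those of tested genes.

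Ribosome biogenesis genes fell in 34 of 40 cases and 1 rose (median -0.91), and 39 fell with library totals. Myc, a driver of growth that belongs to this list, went from 43.2, 45.2, 53.5 and 74.6 CPM to 4.55, 3.51 and 6.86 CPM (-3.28 ± 0.26, adjusted p = 2.79e-07). Dkc1, the pseudouridine synthase of ribosomal RNA, fell from 35.7 ± 6.04 to 4.13 ± 0.265 CPM and Polr1b, of RNA polymerase I, from 33.8 ± 6.35 to 4.52 ± 0.929 CPM. Wdr43 was the member that rose (0.72 ± 0.10). Npm1, nucleophosmin, overlapped between the groups (0.08 ± 0.09). Of 256 small nucleolar RNA genes 87 fell (34.0%) and 6 rose (2.34%), with a median of -0.74. Of 13797 protein-coding genes tested, 4402 fell (31.9%) and 3586 rose, with a median of -0.10. The share that fell was thus close to that of protein-coding genes, and the classes differed mainly in how few small nucleolar RNA genes rose. Counts by library totals are not given for these classes. The E-box CACGTG, which MYC and TFEB proteins can bind, was in 12.1% of promoters of genes that fell. It was in 8.73% of those of genes that rose and 7.97% of those not called. It was in 9 of 31 promoters of the ribosome biogenesis list and 7 of 17 of the lysosomal list.

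The proteins of the ribosome itself are a separate group. Of 77 cytosolic ribosomal protein genes 16 rose and 0 fell (median 0.19), yet 0 rose and 72 fell by library totals and 8 rose without LPS replicate 3. Rpl24, with the largest rise, went from 175, 175, 178 and 186 CPM to 287, 298 and 291 CPM. Of 15 genes in common use as references, 3 rose and 2 fell, or 1 and 12 by library totals. Actb (beta-actin) rose from 7616 ± 1261 to 12468 ± 2052 CPM. Gapdh was at 366, 349.9, 359 and 355 CPM and 437, 398 and 427 CPM, a log2 difference of 0.24 ± 0.11 that did not pass the test. It was called higher in 7 of 18 alternative settings, among them the block in set 2 (0.26, adjusted p = 0.00618), and lower by library totals.

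**Figure D4:**
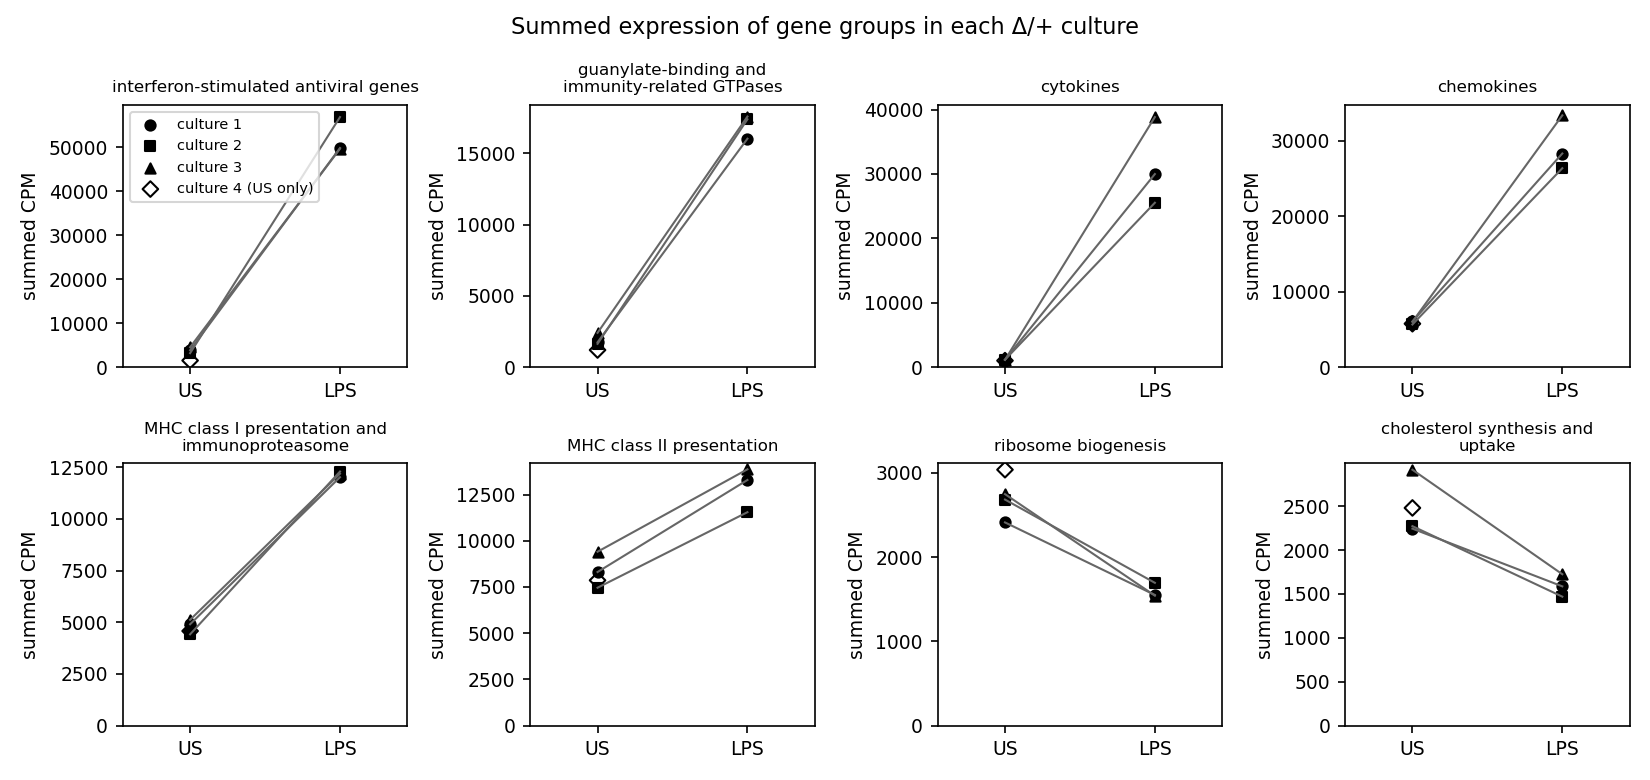
Summed CPM of 8 gene groups in the US and LPS libraries of each Δ/+ culture, with lines joining the 2 libraries of cultures 1, 2 and 3, and an open diamond for culture 4, which has no LPS library. By summed CPM, each group moved the same way in all 3 cultures. This depends on the scaling for MHC class II genes. As a percentage of all reads they went from 1.02, 0.912 and 1.09 to 1.03, 0.891 and 1.02 in cultures 1, 2 and 3. Antiviral genes summed to 1515 to 4535 CPM in US and 49625 to 56831 CPM in LPS libraries, and ribosome biogenesis genes to 2412 to 3037 CPM and 1543 to 1695 CPM.

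Some of the largest rises lay outside the gene groups. Shisa3 had 0 reads in all 4 US libraries and 7.57, 9.21 and 7.66 CPM with LPS, at least 199-fold higher when each US library is set to its floor of 3 counts. It was the only gene with at most 3 counts in every US library and 5 CPM or more in every LPS library. Calcr, the calcitonin receptor gene, likewise had 0 reads in US and 3.01, 2.97 and 1.96 CPM with LPS, at least 64.6-fold higher. Slc1a2, a glutamate transporter best known from astrocytes, went from 0.8292, 0.620, 0.250 and 0.186 CPM to 156, 150.1 and 164 CPM (8.47 ± 0.57, adjusted p = 2.13e-07). Has1, a hyaluronan synthase gene, was at 0.0278 CPM in US replicate 3, at 0 in the other US libraries and at 4.31, 2.93 and 5.43 CPM with LPS. In all, 55 genes had a mean of at most 1 CPM in US and at least 10 CPM in LPS libraries.

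Among the protein-coding genes that fell most, several encode surface receptors. Cd300lb, an activating receptor of myeloid cells, went from 25.99, 29.0, 34.1 and 44.1 CPM to 0.941, 0.645 and 0.707 CPM (-5.45 ± 0.40, adjusted p = 1.86e-07). No called gene of this class with a mean of at least 1 CPM and groups that do not overlap fell further. Cnr2, the cannabinoid receptor of immune cells, fell from 23.3 ± 3.69 to 0.696 ± 0.197 CPM, C5ar2, a receptor of complement C5a, from 17.3 ± 2.41 to 0.550 ± 0.1198 CPM, and Lpar5, a lysophosphatidic acid receptor, from 3.87 to 0.150 CPM. B3gnt7, a glycosyltransferase gene, fell from 33.4 ± 6.45 to 0.924 ± 0.182 CPM and Tfap4, a transcription factor, from 3.06 to 0.0714 CPM. The other 6 of the 12 were Ankrd63 (-5.00), Smim5 (-4.92), Mlph (-4.90), Neurl1b (-4.80), Sbk1 (-4.49) and Akap5 (-4.43). The 6 largest losses in CPM were in abundant genes, among them Scd2 and Clec7a, described above. Of the others Lrp1, an endocytic receptor, fell from 1383 ± 354 to 779 ± 18.4 CPM, Tgfbi from 711 ± 189 to 226 ± 23.95 CPM, the cytolinker gene Plec from 973 ± 175 to 503 ± 81.2 CPM and Myh9, non-muscle myosin, from 1723 ± 66.3 to 1249 ± 205 CPM. The call of Myh9 was lost without LPS replicate 2 (adjusted p = 0.0513).

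Marker genes of other cell types moved in places. Of 15 conventional dendritic cell markers 3 rose and 0 fell (2 and 6 by library totals), among them Zbtb46, a factor of that lineage (from 29.7 ± 8.17 to 54.4 ± 7.63 CPM), and Xcr1 (from 0.0314 to 0.652 CPM). Of 15 macrophage markers 3 rose and 3 fell (1 and 10 by library totals): Adgre1 (F4/80) rose from 76.2 ± 13.2 to 163 ± 10.7 CPM, while Csf1r, the receptor of macrophage colony-stimulating factor, fell from 764, 805, 831 and 655 CPM to 359.6, 369.6 and 373 CPM (-1.08 ± 0.11, adjusted p = 1.42e-06). Of 8 monocyte markers 4 rose and 1 fell. Vcan rose by 3.13 log2 units, and Ly6c2 went from 131, 128, 126 and 26.8 CPM to 255, 243 and 300 CPM, where US replicate 4 was far below the other libraries and the call was lost without LPS replicate 3 (adjusted p = 0.0584), and also without a filter on low counts (adjusted p = 0.0512). Of 16 neutrophil markers Csf3r rose by 1.70, Cxcr2 fell, and S100a8 overlapped at 27.3, 27.3, 46.0 and 36.4 CPM and 28.3, 33.4 and 48.3 CPM. Whether the mix of cells changed with LPS was not tested.

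The remaining marker lists held few calls, and single members gained or lost theirs when 1 library was left out. Of 7 mast cell and basophil markers tested Hdc, histidine decarboxylase, rose from 0.371, 0.728, 1.11 and 1.72 CPM to 124, 109 and 126 CPM (7.06 ± 0.43, adjusted p = 7.13e-08), 1 fell, and 5 were not called. Of 9 eosinophil markers 1 rose and 0 fell, of 7 B cell markers 0 were called, of 3 T and NK cell markers 1 rose, of 4 erythroid markers 2 rose and of 5 progenitor markers 1 rose and 1 fell. Of 9 plasmacytoid dendritic cell markers 2 rose and 1 fell, and Tcf4 went from 42.6, 41.2, 48.9 and 25.4 CPM to 312, 304 and 345 CPM (2.99 ± 0.21). Of 12 stromal and endothelial markers 4 rose and 1 fell, among them Lum, with 0 reads in every US library and 0.286, 0.290 and 0.144 CPM with LPS, and Dcn, with reads in US replicate 3 alone and 0.464, 0.887 and 0.681 CPM with LPS.

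The 3 cultures with both libraries gave similar effects. Of the 9951 called genes 9889 (99.4%) had the same sign in all 3 cultures, where this held for 72.2% of all tested genes. The calls rest on the same libraries, so this is a description. The median log2 difference of the genes that rose was 1.11, 1.16 and 1.19 in cultures 1, 2 and 3, and that of genes that fell -0.95, -0.96 and -1.07. Of the calls, 7690 (77.3%) held whichever of the 7 Δ/+ libraries was dropped, in refits that called 8742 to 9556 genes. With the culture as a block 10534 genes were called over all 15 libraries, and 11244 in the 6 libraries of set 2.

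Genes that rose differed in how alike the LPS libraries were. Beside Il10, Ifi208 and Cxcl5, the widest coefficients of variation were those of Tmem267 and Rnd1, a small GTPase gene. Tmem267 was at 7.22, 20.3, 15.2 and 10.3 CPM and 13.6, 105 and 25.5 CPM, so that its groups overlapped, and its call was lost without LPS replicate 2 (adjusted p = 0.253), and also in Δ/+ libraries alone (adjusted p = 0.056), in set 2 alone (adjusted p = 0.192) and with the culture as a block in set 2 (adjusted p = 0.107). Rnd1 went from 1.31, 1.18, 1.63 and 1.25 CPM to 20.2, 43.1 and 7.57 CPM, and replicate 2 was the highest LPS library for both. At the other end, Nmi, an interferon-induced STAT partner, was at 88.8, 88.9 and 88.8 CPM with LPS after 10.2, 8.17, 12.9 and 5.38 CPM, and Tdrd7 at 244, 245 and 245 CPM after 68.2, 64.7, 75.3 and 53.7 CPM. Zfp384 (from 47.8 to 58.1 CPM) and Gm10358 (from 153 to 183 CPM) were as even, but their small rises turned negative by library totals, and the call of Gm10358 was lost without LPS replicate 1, US replicate 1, LPS replicate 2, US replicate 2 or LPS replicate 3 (adjusted p = 0.0716 to 0.0884), and also without a filter on low counts (adjusted p = 0.0779). With 3 libraries a coefficient of variation is itself imprecise.

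The LPS effect of Δ/+ cells was set against that of Δ/DN cells in the same model, by a test of the difference of the 2 effects. Of 20865 genes 1 passed (0.00479%), against 1873 at an unadjusted p under 0.05. Emilin1, which encodes an elastic fibre protein, rose in Δ/+ cells from 15.3, 14.2, 19.9 and 14.8 CPM to 32.4, 30.7 and 23.1 CPM (0.83 ± 0.16) and fell in Δ/DN cells from 24.6, 24.2, 21.2 and 28.8 CPM to 13.1, 13.8, 10.7 and 15.8 CPM (-0.89 ± 0.15). Within each genotype the US and LPS libraries did not overlap, and the effects differed by -1.72 ± 0.22 log2 units (adjusted p = 0.0327). The number of genes depended on the fit, with 156 when the culture was a block, 118 by DESeq2 and 0 by library totals, where 1789 had an unadjusted p under 0.05. Leaving out 1 library gave 0 to 15 genes, and the call of Emilin1 was lost without any 1 of replicates 1 and 2 of each group or US replicate 4 of either genotype (adjusted p = 0.0669 to 0.194).

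Other genes with the smallest p for this difference did not pass at an adjusted p of 0.05. The 11 described here passed with the culture as a block (adjusted p = 0.00852 to 0.0441) and by DESeq2, 8 of them passed without a filter on low counts, 6 without Δ/DN culture 3 and 4 without its LPS library alone, and 0 by library totals. Among genes with a larger fall in Δ/+ cells were Myo7a, an unconventional myosin gene (-3.02 ± 0.12 in Δ/+ and -2.20 ± 0.10 in Δ/DN), Rrp12, of ribosome assembly (-2.25 ± 0.12 and -1.38 ± 0.10), Tmem104 (-2.59 ± 0.12 and -1.80 ± 0.10), the amino acid transporter gene Slc7a6 (-1.60 ± 0.13 and -0.62 ± 0.11), the methyltransferase gene Smyd2 (-1.41 ± 0.09 and -0.67 ± 0.08) and Npepl1 (-1.08 ± 0.07 and -0.54 ± 0.07). Among genes with a larger rise were Hamp, the iron hormone hepcidin (7.73 ± 0.52 and 4.21 ± 0.42), Creb3l1 (3.66 ± 0.22 and 1.91 ± 0.19), Bcl11a, a lineage factor of plasmacytoid dendritic cells and lymphocytes (3.06 ± 0.37 and 0.34 ± 0.33), Acvr1b, an activin receptor gene (0.96 ± 0.13 and 0.01 ± 0.12), and Kctd12 (0.42 ± 0.20, not called, and -0.86 ± 0.19). Hamp was at 8.45, 12.3 and 5.62 CPM in Δ/+ LPS libraries and at 2.74, 2.10, 4.59 and 1.95 CPM in Δ/DN LPS libraries. In US libraries it was near the floor, at 0.0873, 0.0239, 0.0463 and 0.0233 CPM in Δ/+ and 0.206, 0.112, 0.221 and 0.0768 CPM in Δ/DN. The size of its log2 effects, and of their difference, thus rests in part on few reads.

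**Figure D5:**
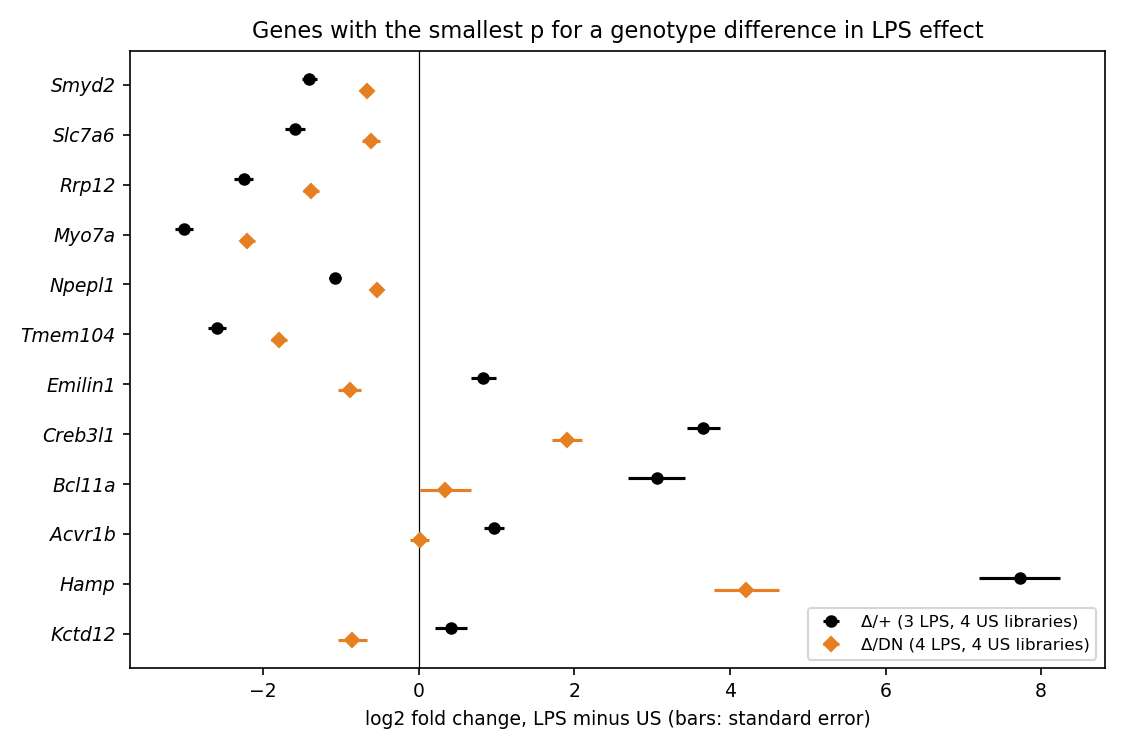
Log2 fold change of LPS over US in Δ/+ cells (black circles) and Δ/DN cells (orange diamonds), with standard errors as bars, for the 12 protein-coding genes with the smallest p for the difference between the 2 effects, 6 in each direction. Emilin1 is the gene whose difference passed the test, at -1.72.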

How the data were processed

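Read counts per gene symbol, as deposited by the authors in 1 table per library, are whole numbers and were not normalized before deposit. Per the submitters' processing notes, the authors' tools included FastQC, Trimmomatic 0.33, HISAT2 2.2.1, featureCounts, bedtools and edgeR, with the genome GRCm39. Strand and mate settings are not given in the sources used here. Without strand, reads of overlapping or antisense genes cannot be told apart. In the Δ/+ libraries 1464 to 1820 genes had a count of 1, 1644 to 1844 a count of 2 and 568 to 757 a count of 3, and whether mates were counted singly was not tested. Per the labels' protocols, RNA was depleted of ribosomal RNA before library preparation, so RNA without poly(A) tails is measured too.

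Counts of 20865 genes that passed filterByExpr (minimum count 10) were tested with edgeR 4.0.16 (quasi-likelihood F test, TMM, robust fit) in R 4.3.3, in all 15 libraries, with 4 groups and the library set as terms. The Δ/DN libraries enter the estimate of spread and that of the library set term, which adjusts Δ/+ US replicate 4 to set 2. Adjusted p is by Benjamini-Hochberg over all tested genes, SE is that of the log2 difference, and CPM uses TMM library sizes. A count of 3, the floor, is 0.0278 to 0.0655 CPM. The fit was run on simulated counts with the spread it had estimated, in which few genes changed, in equal numbers up and down. In these data 47.7% of genes were called, so the simulation does not test the scaling.

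Replicate numbers follow the culture in the library names. By these names cultures 1 to 3 were taken as paired. Deviations of their US and LPS libraries from the mean of the 3 cultures correlated over genes at 0.146, 0.133 and 0.197 within a culture. Between cultures the values were -0.116 to -0.0203. Deviations from a mean of 3 libraries cancel out, so part of this contrast is built in. The model above has no culture term, and the culture as a block is an alternative.

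The comparison, the gene lists and the rule for named genes were chosen with earlier results of these data known. Named were the 12 protein-coding genes with the largest rise and fall, the 6 with the largest gain and loss in CPM, the 5 with the widest and the narrowest spread among LPS libraries, the 6 in each direction for the difference between genotypes, genes with at most 3 counts per US library and at least 5 CPM with LPS, members of lists, and Mysm1. The largest rises and falls were taken among called genes with a mean of at least 1 CPM over the 7 Δ/+ libraries and groups that do not overlap. Alternatives were RLE scaling, no filter, a filter of 1 CPM in 3 libraries, no library set term, the culture as a block, Δ/+ libraries alone, set 2 alone, Δ/DN culture 3 left out, each library left out, DESeq2 1.42.0 and, added after seeing the data, library totals. Symbols of 48903 genes (96.7%) matched RefSeq, from which biotypes and promoters (GRCm38.p6) came.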

Additional observations from a re-analysis of the deposited data

Results flagged for a closer look

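Among 209 named genes the highest and lowest library of the 4 Δ/+ US libraries was compared with the others by Dixon's ratio. Genes with 0 reads in all 4, such as Shisa3, Calcr and Lum, could not be compared. For 19 of the 209 genes 1 library lay far from the rest, where chance gives about 1 in 20 for independent, normally distributed values. Genes that move together are not independent, so this rate is a rough guide. In 3 of these, Csf2, Dcn and Has1, the other 3 libraries had 0 reads, so that the ratio is at its largest for a few reads in 1 library, and 16 remain without them. By replicate there were 3, 2, 9 and 5 such values in replicates 1 to 4. The LPS group, of 3, was too small for this check.

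In replicate 1, Csf2 was at 0.0436 CPM with 0 in the others, Rrp12 at 34.3 CPM against 40.7 to 41.6, and Creb3l1 at 1.90 CPM against 1.34 to 1.41. In replicate 2, Hif1a was at 380.3 CPM against 284 to 297 and Slc7a11 at 739 CPM against 605 to 611.

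In replicate 3, the signalling and immune genes were Myd88 at 109 CPM against 79.1 to 84.1, Gvin1 at 1492 CPM against 881 to 968, Casp1 at 44.5 CPM against 37.4 to 38.1 and Nos2 at 1.56 CPM against 2.51 to 2.68. The others were Bcl2 at 18.4 CPM against 8.23 to 8.95, Neurl1b at 6.00 CPM against 4.62 to 4.80 and Lpar5 at 6.39 CPM against 2.82 to 3.38. Dcn was at 0.0555 CPM and Has1 at 0.0278 CPM in this library and at 0 in the others.

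In replicate 4, of the other library set, Irf1 was at 33.8 CPM against 61.4 to 63.2, Ccr1 at 349.7 CPM against 175 to 200.3, Hk3 at 109 CPM against 56.5 to 59.8, Cflar at 136 CPM against 182 to 192 and Ly6c2 at 26.8 CPM against 126 to 131.

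The LPS effect on Emilin1 differed between genotypes by -1.72 log2 units (Δ/DN minus Δ/+, adjusted p = 0.0327 by edgeR), with a rise in all 3 Δ/+ cultures that had both libraries. By library totals the adjusted p was 0.210, and without 1 library 0.0172 to 0.194.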

How the results depend on the processing

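The LPS response itself kept its size under the alternatives other than library totals. Each library left out in turn gave 8742 to 9556 called genes, and the other settings 9035 to 11244. All calls that were kept under those alternatives had the same direction. Of 192 called genes named in the text, 11 lost the call in at least 1 of them. Library totals called 2317 genes higher and 11211 lower, and the differences of these genes turned negative: Tgfb1 to -0.40, Calr -0.35, Ass1 -0.15, COX2 -0.26, ATP8 -0.14, Abca1 -0.32, Mrc1 -0.42, Mki67 -0.40, Npm1 -0.57, Gapdh -0.42, Itgax -0.32, S100a8 -0.27, Zfp384 -0.35, Gm10358 -0.37 and Kctd12 -0.23. Ciita, never called, was at 0.035 with RLE scaling, 0.0021 with the stricter filter, 0.11 without the library set term, 0.010 without Δ/DN culture 3, 0.13 in Δ/+ libraries alone, 0.035 by DESeq2 and -0.28 to 0.19 with 1 library left out. Arg1 was at 0.046 without the set term, 0.056 in Δ/+ libraries alone, 0.11 in set 2 alone and -0.68 to 0.090 with 1 library left out, and the causes were not tested.

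With the culture as a block, 10534 genes were called over all 15 libraries and 11244 in set 2. Arg1 was at 0.037 and 0.068 in these 2 fits. Tgfb1, Pdcd1lg2, Calr, Ass1, Slc2a1, Vegfa, Abca1, Gapdh and Itgax gained a call in at least 1 of them. Over all 18 alternatives the direction first given was called for Abca1 and Vegfa in 9, Gapdh in 7, Itgax in 6, Slc2a1 in 5, Calr and Pdcd1lg2 in 3, Ass1 in 2 and Tgfb1 in 1. The calls of Pfkfb3 and Tmem267 were lost with the block in set 2. The difference of the LPS effect between genotypes was called for 156 genes with the block, 112 higher and 44 lower in Δ/DN. Without a block it was called for 34 genes without a filter (26 higher, 8 lower), 118 by DESeq2 (86 and 32), 44 without Δ/DN culture 3 (30 and 14), 0 by library totals (0 and 0) and 0 to 15 with 1 library left out (0 to 9 higher, 0 to 6 lower). The cause was not tested.

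Depth limits the values of genes near 3 counts per US library, as in Csf2, Has1, Lum, Dcn, Il23a, Il12a, Il10 and Hamp. All 3 LPS libraries belong to 1 library set.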
